A study of Mus musculus with 26 samples.

Results

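The 38 genes described here encode the glucose and lactate carriers, the enzymes of glycolysis, and genes that respond to low oxygen through the hypoxia-inducible factor (HIF). They were chosen by name, and all 38 were found among the 15623 gene names of the MC38 table and among the 15296 gene names of the T cell table. Poly(A) RNA had been sequenced in 26 libraries. Of these, 17 came from MC38/gp100, mouse colon adenocarcinoma cells modified to hold the gp100 antigen, and 9 came from pmel-1 T cells, which were isolated from transgenic mice and are labelled wild-type. The MC38 groups were wild-type cells and Mtap knockout (KO) cells, each with DMSO, GSK3326595 at 0.5 µM or MRTX1719 at 0.5 µM for 5 days. Wild-type cells with MRTX1719 were represented by 2 libraries and the other MC38 groups by 3 each. T cells received DMSO or either compound, again at 0.5 µM, for 3 days in medium with IL-2, in 3 libraries per group. Every MC38 group shares the gp100 modification, and every T cell group shares the pmel-1 transgene and the IL-2. Mtap encodes methylthioadenosine phosphorylase, and both compounds inhibit the arginine methyltransferase PRMT5. MRTX1719 binds PRMT5 together with methylthioadenosine (MTA), which builds up when Mtap is lost, whereas GSK3326595 does not need MTA. No source used here states if the KO line was 1 clone, and a difference between the lines cannot be told apart from a difference between clones.

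Glycolysis splits glucose into pyruvate. Carriers bring glucose in, hexokinase and phosphofructokinase commit it to the pathway, and the lower steps yield ATP and pyruvate, which lactate dehydrogenase turns into lactate for export. HIF is a transcription factor whose alpha subunit is marked for degradation by oxygen-dependent prolyl hydroxylases (Egln genes), and it raises many glycolytic genes when oxygen is low. Tumour lines and dividing T cells are both known for a high glycolytic flux even with oxygen present. In bulk RNA, fewer cells of a type and less RNA per cell cannot be told apart.

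Total counts ran from 19302768 to 27786226 per MC38 library and from 13813406 to 20772699 per T cell library. Levels below are CPM, counts scaled to a common total, on library sizes scaled by the trimmed mean of M values. Mtap RNA stood at 388 to 397 CPM in wild-type and at 264 to 276 CPM in KO cells under DMSO, so it was lower but still present. Epcam and Cdx2, which define colon epithelium, were at 0 in all 6 MC38 libraries under DMSO, and the 7 epithelial markers summed to 14.6 to 24.9 CPM there. The 9 T cell markers summed to 4350 to 4420 CPM in T cells under DMSO, and those of other cells were lower: 3.27 to 4.75 CPM for 5 B cell markers (Ms4a1 at 0), 3.22 to 4.69 CPM for 6 myeloid markers (Lyz2 and Adgre1 at 0), 40.3 to 42.6 CPM for 4 CD4 T cell markers and 154 to 168 CPM for 4 NK cell markers (Ncr1 and Klra8 at 0). The 8 fibroblast and endothelial markers summed to 2100 to 2130 CPM in wild-type cells under DMSO, 6280 to 6640 CPM in KO cells under DMSO, 3950 to 4000 CPM in KO cells with GSK3326595 and 2760 to 2790 CPM in KO cells with MRTX1719. The 11 immediate early and heat shock genes that serve as signs of handling summed to 2970 to 3060 CPM in wild-type cells and 995 to 1010 CPM in KO cells under DMSO. With GSK3326595 they summed to 2510 to 2540 CPM in wild-type and 783 to 815 CPM in KO cells, and with MRTX1719 to 2520 to 2540 and 710 to 716 CPM. These lists move with several of the comparisons below, and their part in the results was not tested.

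Promoter sequences of the members are shown first, because HIF binds DNA at the letters ACGTG and MYC and related factors bind the E-box CACGTG. RefSeq promoters on the GRCm38.p6 build, 250 bases before to 50 bases after each start, were at hand for 35 of the 38 members and numbered 51 in all. ACGTG on either strand was found in 28 of these 51 promoters (54.9%), against 19.6% of all 32851 promoters. CACGTG was found in 6 of 51 (11.8%), against 7.15% of all, and each CACGTG also counts as ACGTG on both strands. Counted by gene, 25 of the 35 members held ACGTG in at least 1 promoter, against 21.8% of 27025 genes. Slc2a3, Bnip3l and Ndrg1 were not in the table. A match describes the letters only, and no binding was measured. The members were chosen partly as known HIF targets, and the promoters of all genes were not limited to genes expressed in these cells. Nothing is therefore read from the higher share among the members. The excerpts below lie upstream of the start site and are printed 5′ to 3′ on the gene's strand, with each match in capitals. Only promoters with a match are printed. They belong to some genes that rose in the KO line and fell with MRTX1719 there (Pgk1, Ldha, Bnip3, Egln3, P4ha1). The others are the carrier genes Slc2a1 and Slc16a3, Car9, and Hif1a itself. Of these, Car9 and Slc16a3 also had a higher mean in the KO line and a lower one with MRTX1719 there. The means were 0.396, 1.31 and 0.678 CPM for Car9 in wild-type with DMSO, KO with DMSO and KO with MRTX1719. For Slc16a3 they were 101, 278 and 265 CPM. Gpi1, Pfkl, Pdk1 and Eno1 also rose in the KO line and fell with MRTX1719 there, and none of their promoters held ACGTG.
Pgk1, chrX:106186920-106187003 (+): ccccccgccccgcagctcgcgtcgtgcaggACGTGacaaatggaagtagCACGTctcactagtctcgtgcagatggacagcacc
Ldha, chr7:46845629-46845803 (+): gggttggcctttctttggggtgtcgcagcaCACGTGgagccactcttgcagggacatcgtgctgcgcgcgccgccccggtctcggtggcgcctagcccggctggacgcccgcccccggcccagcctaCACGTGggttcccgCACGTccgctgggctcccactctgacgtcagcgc
Bnip3, chr7:138909579-138909644 (-): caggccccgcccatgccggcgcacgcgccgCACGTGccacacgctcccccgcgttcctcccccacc
Egln3, chr12:54204069-54204124 (-): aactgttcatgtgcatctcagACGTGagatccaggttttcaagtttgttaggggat
P4ha1, chr10:59323250-59323295 (+): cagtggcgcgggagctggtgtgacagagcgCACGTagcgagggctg
Slc2a1, chr4:119108679-119108743 (+): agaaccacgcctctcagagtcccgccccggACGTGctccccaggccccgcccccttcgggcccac
Slc16a3, chr11:120949010-120949066 (+): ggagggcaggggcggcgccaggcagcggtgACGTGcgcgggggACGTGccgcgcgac
Car9, chr4:43506978-43507025 (+): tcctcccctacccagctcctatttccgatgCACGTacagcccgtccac
Hif1a, chr12:73907702-73907831 (+): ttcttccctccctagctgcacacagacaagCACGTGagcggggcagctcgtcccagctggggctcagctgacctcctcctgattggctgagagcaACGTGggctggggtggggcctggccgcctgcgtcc
Slc16a3 held a pair of ACGTG matches within its last 57 bases before the start, and Pgk1 held 1 match on each strand. Ldha held a pair of E-boxes and a further CACGT.

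Levels were compared between members as CPM per kilobase of exon (GENCODE M21 gene models). The length is the union of all annotated exons of a gene, which can exceed the transcript in use. Ranks between members depend on that length. In wild-type MC38 cells under DMSO the 6 highest were Gapdh at 704, Pgk1 at 555, Eno1 at 362, Pkm at 290, Aldoa at 289 and Ldha at 248 CPM per kilobase (means of 3 libraries), of which the first 4 belong to the lower pathway. T cells under DMSO had Gapdh at 965, Aldoa at 226, Ldha at 175 and Eno1 at 151 CPM per kilobase, and Pgk1 at 99. The paralogs used for a step differed in rank between the cell types. Among the phosphofructokinase genes, the platelet-type Pfkp (36.1 ± 0.667 CPM per kilobase, SD, n = 3) stood above the liver-type Pfkl (11.5 ± 0.673) in T cells. Pfkl (19.4 ± 0.0903) stood above Pfkp (6.88 ± 0.0489) in wild-type MC38 cells. Before division by length they were at 130 ± 0.603 and 92.2 ± 0.656 CPM there. Of the hexokinases, Hk2 (28.3 ± 0.274 CPM per kilobase) stood above Hk1 (9.0 ± 0.499) in T cells. In wild-type MC38 cells Hk1 (16.4 ± 0.276) and Hk2 (15 ± 0.409) were close per kilobase, with exon unions of 8532 and 5969 bases. Before division by length they were at 140 ± 2.35 and 89.5 ± 2.44 CPM. The high-affinity glucose carrier Slc2a3 was at 4.65 ± 0.156 CPM per kilobase in T cells and at 1.05 ± 0.0746 in wild-type MC38 cells. It was far below Slc2a1 in both (34.7 ± 0.937 and 35.9 ± 1.07). At the low end stood Car9, Aldoc, Pfkfb3 and Slc2a3 in MC38 cells. Car9, a cell-surface carbonic anhydrase, rested on 5 to 12 counts per library in wild-type cells under DMSO. The 2 cell types were normalized in separate tables, so their levels are set side by side without a test.

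**Figure D1:**
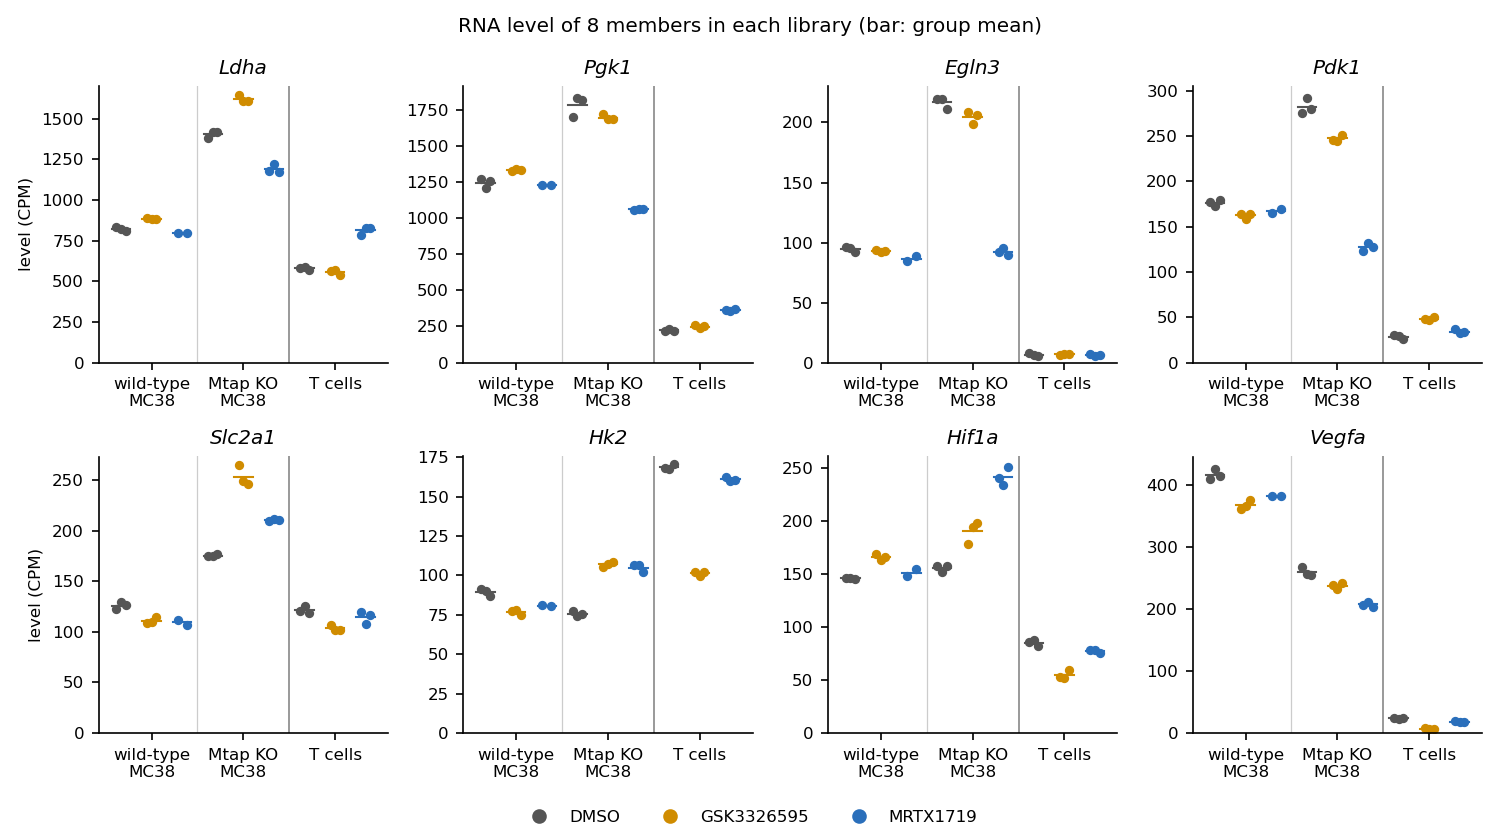
Level in CPM (y axis, each panel on its own scale) of Ldha, Pgk1, Egln3, Pdk1, Slc2a1, Hk2, Hif1a and Vegfa in every library, by cell type and treatment, with 1 point per library and a bar at the group mean; the 8 genes were chosen to span the roles after their values were seen. Egln3 and Pdk1 are high in KO cells with DMSO or GSK3326595 and low in KO cells with MRTX1719, and Vegfa is low in T cells with GSK3326595.

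The first comparison asks how the KO line differs from the wild-type line without an inhibitor. Most members were higher in the KO line: 28 of 38 rose and 8 fell, against 73.2% of all 14835 genes called in either direction (36.2% up and 37% down). The median log2 fold change was 0.51 over the members and 0.01 over all genes tested, and 8 of 38 members were called with a fold of at least 2, against 15% of all genes. Calls rest on an adjusted p under 0.05 from edgeR's quasi-likelihood test. Here and below, shares of all genes are not matched for expression level. Many members are abundant, and the part of level in their share of calls was not tested. All 6 genes of the lower pathway rose, led by the mutase Pgam1 (1.15 ± 0.0198, log2 fold change ± SE), the pyruvate kinase Pkm (0.94 ± 0.0175) and Gapdh (0.67 ± 0.0180). Of the 11 upper-pathway genes 6 rose, among them the isomerase Gpi1 (1.05 ± 0.0195), Pfkl (1.01 ± 0.0264) and Tpi1 (0.98 ± 0.0200), and 3 fell: Hk2 (-0.25), Pfkp (-0.13) and Pfkfb3.

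The lactate exporter Slc16a3 was at 102, 102 and 99.6 CPM in wild-type and at 277, 277 and 278 CPM in KO libraries. The groups lay far apart, and the log2 fold change was 1.46 ± 0.0265 (adjusted p = 2.08e-92). The importer and exporter Slc16a1 went the other way (-0.34 ± 0.0257). Ldhb, the dehydrogenase form that favours pyruvate, was at 6.08, 4.62 and 5.21 CPM in wild-type and 13.2, 13.6 and 14.8 CPM in KO libraries (1.40 ± 0.0920, adjusted p = 3.02e-30). Its more abundant partner Ldha rose by less (0.78 ± 0.0183). Car9 stood at 0.211, 0.455 and 0.521 CPM in wild-type and at 1.03, 1.62 and 1.28 CPM in KO libraries, without overlap (1.73 ± 0.328, adjusted p = 9.44e-07). All 3 of Hif1a and its hydroxylases rose, by 0.09 ± 0.0285 for Hif1a, 0.36 for Egln1 and 1.20 ± 0.0285 for Egln3. Of the 10 HIF targets 8 rose, including Ankrd37 (1.34 ± 0.0760), the mitophagy receptors Bnip3 (0.995 ± 0.0267) and Bnip3l (0.82), and the histone demethylase Kdm3a (0.81).

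The members that fell include well-known HIF targets. The angiogenic factor Vegfa was at 410, 425 and 414 CPM in wild-type and at 268, 256 and 255 CPM in KO libraries (-0.68 ± 0.0224, adjusted p = 4.91e-61). The oxidoreductase gene Ero1a fell slightly (-0.13). Slc2a3 fell from 8.23, 7.35 and 7.26 CPM to 3.54, 4.37 and 5.47 CPM (-0.75 ± 0.115, adjusted p = 3.09e-09), while Slc2a1 rose (0.48). Pfkfb3, which makes the activator of phosphofructokinase, fell from 5.24, 4.39 and 5.21 CPM to 3.18, 3.15 and 3.52 CPM (-0.58 ± 0.138, adjusted p = 7.9e-05). Vegfa, Slc2a3 and Pfkfb3 did not overlap between the lines.

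Genes of neighbouring lists in the same comparison went in several directions, beside 73.2% of all genes called (36.2% up and 37% down). The pyruvate entry and pentose phosphate lists were called at about that share, and nothing is read from their counts. Here and below, list counts stand beside the share of all genes given for the same comparison. Of 28 tested other HIF targets (33 listed), 21 rose and 6 fell, with adrenomedullin Adm (1.95 ± 0.224) and Loxl2 (1.24 ± 0.240) rising most. The HIF machinery list had 6 up and 3 down of 10, led by Epas1, the HIF-2 alpha subunit (1.77 ± 0.282). Pyruvate entry into mitochondria had 2 up and 6 down of 10, with the carrier subunit Mpc2 at -0.69 ± 0.0522. Pentose phosphate genes were split, with 3 up (Tkt 0.57 ± 0.0236) and 3 down (Rpe -0.79 ± 0.0466) of 8. Among MYC and glucose-sensing regulators, Mycn (2.68 ± 0.0495) and the glucose-responsive arrestin Txnip (1.28 ± 0.0233) rose and Myc (-0.99 ± 0.0266) fell.

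**Figure D2:**
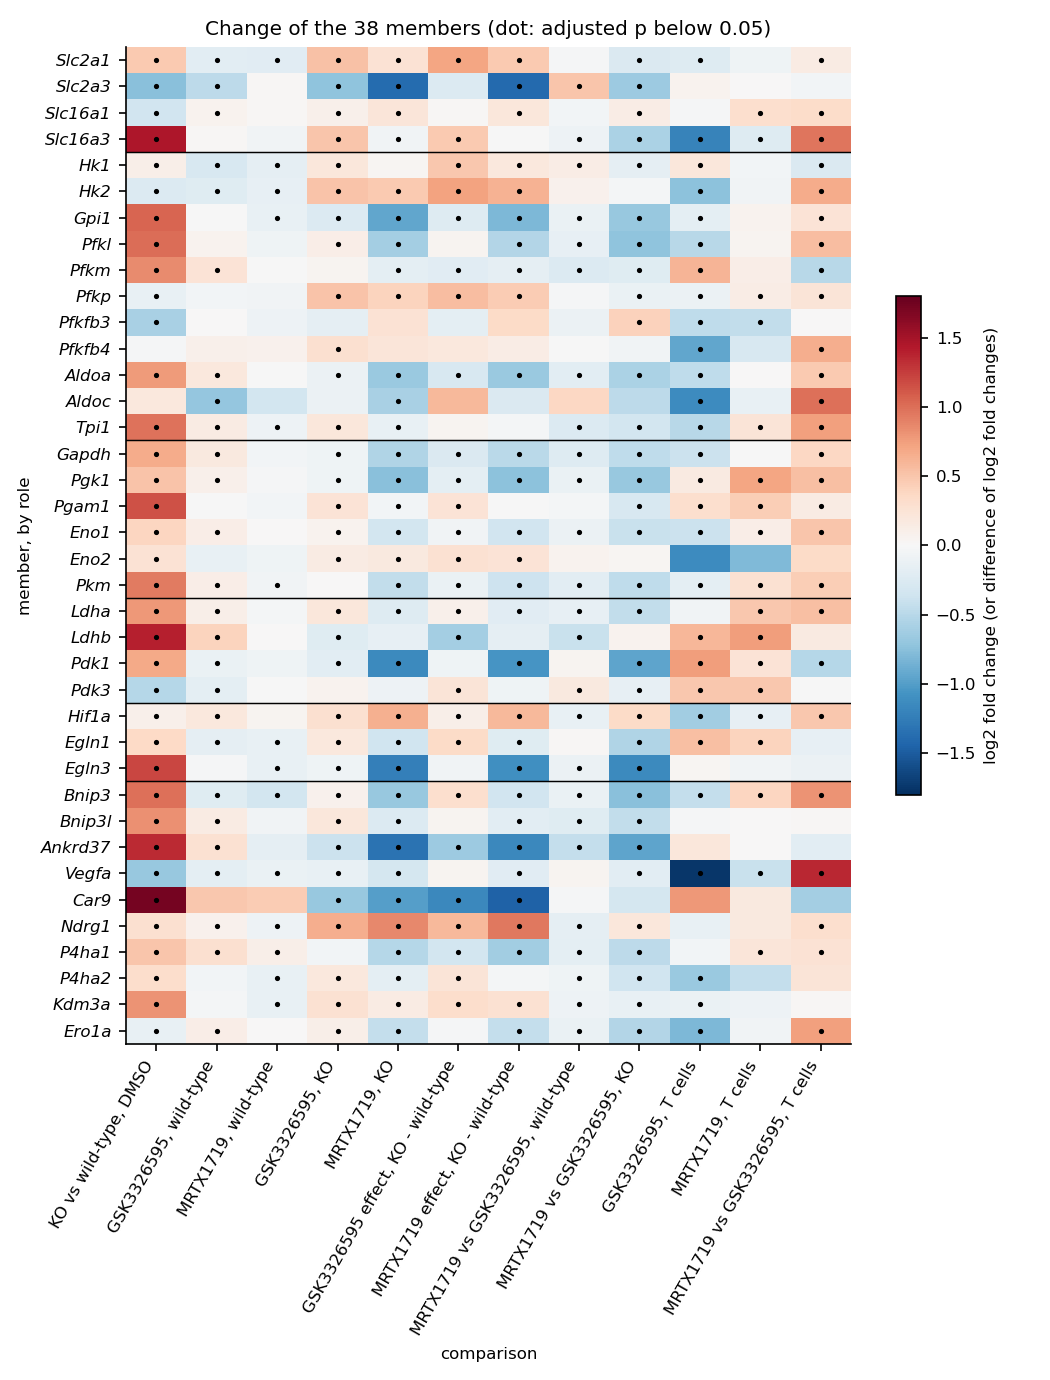
Log2 fold change (colour, with its scale beside the panel) of the 38 members (rows, by role) in 12 comparisons (columns); a dot marks an adjusted p under 0.05. The KO against wild-type column is mostly positive, with 28 members up, and the column of MRTX1719 in KO cells is mostly negative, with 25 members down.

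GSK3326595 in wild-type MC38 cells moved the members by little and in both directions. Of 38, 16 rose and 10 fell, against 41.1% of all genes called (20.1% up, 21.1% down), and no member was called with a 2-fold change, against 2.32% of all genes. The lower pathway had 4 of 6 up: Pgk1 (0.10), Eno1 (0.12), Pkm (0.13) and Gapdh (0.18). The largest called rise was Ldhb, from 6.08, 4.62 and 5.21 CPM with DMSO to 7.04, 7.04 and 6.90 CPM (0.40 ± 0.103, adjusted p = 0.000615). P4ha1, a collagen prolyl hydroxylase, rose from 432, 428 and 434 CPM to 525, 526 and 524 CPM (0.28 ± 0.0202, adjusted p = 3.43e-26). Ankrd37 rose from 8.36, 8.03 and 8.91 CPM to 9.58, 10.6 and 10.3 CPM (0.27 ± 0.0853, adjusted p = 0.00659). In these 3 genes every treated library was above every control library.

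Glucose uptake and capture genes were among those that fell in wild-type cells with GSK3326595. Hk1 went from 137, 141 and 142 CPM to 111, 116 and 118 CPM (-0.29 ± 0.0280, adjusted p = 4.23e-17). Hk2 (-0.22 ± 0.0322) and Slc2a1 (-0.18 ± 0.0288) fell with it. Slc2a3 went from 8.23, 7.35 and 7.26 CPM to 5.74, 5.08 and 5.57 CPM (-0.48 ± 0.108, adjusted p = 0.000102). The brain-type aldolase Aldoc, at 1.14, 1.44 and 1.17 CPM with DMSO and 1.04, 0.693 and 0.590 CPM with GSK3326595, gave -0.70 ± 0.270 (adjusted p = 0.0276). That call was lost without DMSO replicate 2 (adjusted p = 0.135), GSK3326595 replicate 2 (0.0895) or GSK3326595 replicate 3 (0.153), and with DESeq2 (0.118). Of 28 other HIF targets 7 rose and 3 fell, with Adm at 0.96 ± 0.252 and Loxl2 at 0.81 ± 0.250. Adm was not called without GSK3326595 replicate 2 (adjusted p = 0.1), nor Loxl2 without DMSO replicate 3 (0.0537) or GSK3326595 replicate 1 (0.0682).

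MRTX1719 in wild-type cells, which keep Mtap, gave few calls over all genes (7.53%, with 3.62% up and 3.91% down). Among the members 13 fell and 1 rose, and the sizes were small, with a median log2 fold change of -0.07. Bnip3 fell most, from 122, 120 and 123 CPM to 93.9 and 98.6 CPM (-0.34 ± 0.0325, adjusted p = 7.6e-16). Slc2a1 fell from 122, 130 and 126 CPM to 112 and 107 CPM (-0.20 ± 0.0323, adjusted p = 7.98e-07), and Hk1 from 137, 141 and 142 CPM to 125 and 127 CPM (-0.15 ± 0.0310, adjusted p = 0.000148). In each of these the treated libraries lay below every control. P4ha1 rose to 475 and 455 CPM from 432, 428 and 434 CPM (0.11 ± 0.0227, adjusted p = 0.00037). Without MRTX1719 replicate 1 that rise was 0.08 and not called (adjusted p = 0.139). Without MRTX1719 replicate 3 the number of members that fell was 7. Of the 10 HIF targets 5 fell, as did both hydroxylases, Egln1 (-0.14) and Egln3 (-0.13), the latter not without MRTX1719 replicate 1 (adjusted p = 0.279).

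In KO cells GSK3326595 raised 21 members and lowered 11, against 52.8% of all genes called (27.7% up, 25.1% down). Ndrg1, a stress-responsive HIF target, rose from 348, 346 and 339 CPM to 550, 542 and 537 CPM (0.66 ± 0.0207, adjusted p = 3.36e-62). Slc2a1 rose from 175, 175 and 177 CPM to 265, 249 and 246 CPM (0.53 ± 0.0260, adjusted p = 4.03e-41). Hk2 rose from 77.2, 74.0 and 75.3 CPM to 106, 107 and 109 CPM (0.51 ± 0.0321, adjusted p = 6.08e-31). The groups did not overlap for any of the 3, and Pfkp (0.51 ± 0.0326) and Slc16a3 (0.50 ± 0.0234) rose by like amounts. Carriers were thus 3 up and 1 down of 4, and the upper pathway 6 up and 2 down of 11. Gpi1 was one of those that fell (-0.25 ± 0.0190).

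Slc2a3 moved against Slc2a1 in KO cells with GSK3326595, from 3.54, 4.37 and 5.47 CPM to 2.75, 2.57 and 2.86 CPM (-0.73 ± 0.142, adjusted p = 4.03e-06). Ankrd37 fell from 20.1, 21.4 and 22.1 CPM to 16.6, 16.4 and 15.9 CPM (-0.38 ± 0.0664, adjusted p = 3.07e-07). Car9, at 1.03, 1.62 and 1.28 CPM with DMSO and 0.621, 1.06 and 0.763 CPM with GSK3326595, gave -0.68 ± 0.278 (adjusted p = 0.031), and its groups overlapped. The Car9 call was lost without DMSO replicate 2 (0.202) or 3 (0.0519), without GSK3326595 replicate 1 (0.132) or 3 (0.0874), with DESeq2 (0.155) and with no filter on low counts (0.0631). Other HIF targets had 17 up and 5 down of 28, with Loxl2 at 0.91 ± 0.175 and Cited2, a co-activator competitor of HIF, at 0.72 ± 0.0313. Epas1 rose too (0.85 ± 0.189).

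MRTX1719 in KO cells lowered most of the pathway and most HIF targets. Of 38 members 25 fell and 8 rose, against 70.5% of all genes called (37% up, 33.6% down). The median log2 fold change was -0.24 over the members and 0.02 over all genes, and 4 of 38 members changed at least 2-fold, against 12% of all genes, a like share. Of the 10 HIF targets 8 fell and 2 rose, and 5 of the 6 lower-pathway genes fell. Of these, Pgam1 fell little, from 778 ± 6.85 to 754 ± 7.52 CPM (SD). Its call was lost without DMSO replicate 2 (adjusted p = 0.0602) or 3 (0.0814), or MRTX1719 replicate 1 (0.125) or 3 (0.0699). The Aldoc call was lost without DMSO replicate 1 (0.0755) or 2 (0.11) or MRTX1719 replicate 1 (0.261). It was also lost with DESeq2 (0.129) and with no filter on low counts (0.0589). Markers moved in the same comparison. Handling genes summed to 995 to 1010 CPM with DMSO and 710 to 716 CPM with MRTX1719, and fibroblast and endothelial markers summed to 6280 to 6640 and 2760 to 2790 CPM. The 7 epithelial markers went up, from 14.6 to 15.9 CPM with DMSO to 59.3 to 60.9 CPM with MRTX1719, and stood at 59.9 to 62.6 CPM with GSK3326595. The part of these lists in the change of the members was not tested.

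Egln3, a hydroxylase gene that HIF itself raises, was at 219, 220 and 211 CPM with DMSO and at 91.9, 95.6 and 89.9 CPM with MRTX1719 (-1.23 ± 0.0288, adjusted p = 3.06e-78). Ankrd37 went from 20.1, 21.4 and 22.1 CPM to 7.86, 9.39 and 7.91 CPM (-1.33 ± 0.0767, adjusted p = 3.84e-35). Slc2a3 went from 3.54, 4.37 and 5.47 CPM to 1.55, 2.06 and 1.5 CPM (-1.38 ± 0.160, adjusted p = 5.45e-14). No treated library reached a control library in any of the 3. Pdk1, the kinase that shuts pyruvate dehydrogenase, fell by a like amount (-1.15 ± 0.0262), with Gpi1 (-0.94 ± 0.0194), Pgk1 (-0.75 ± 0.0188), Bnip3 (-0.68 ± 0.0262), Aldoa (-0.67 ± 0.0185), Pfkl (-0.61 ± 0.0258) and Gapdh (-0.54 ± 0.0180) behind it. Pkm (-0.44), Eno1 (-0.34) and Ldha (-0.24) fell less. Against wild-type cells under DMSO, the treated KO cells were near for Egln3 (92.5 ± 2.86 CPM, SD, against 94.5 ± 1.93) and Ankrd37 (8.38 ± 0.868 against 8.43 ± 0.442). They were above for Gpi1 (619 ± 17.0 against 575 ± 5.06) and Bnip3 (151 ± 3.36 against 122 ± 1.68). They were below for Pdk1 (128 ± 4.41 against 177 ± 3.25), Pgk1 (1060 ± 5.51 against 1250 ± 31.9) and Slc2a3 (1.70 ± 0.311 against 7.61 ± 0.540), and none of these differences was tested.

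Of the 8 members that rose in the same KO cells, 1 encodes HIF itself. Ndrg1 reached 626, 629 and 626 CPM (0.87 ± 0.0207, adjusted p = 2.23e-77). Hif1a went from 157, 151 and 157 CPM to 240, 234 and 250 CPM (0.64 ± 0.0274, adjusted p = 1.52e-42), so the RNA of the HIF alpha subunit rose while 8 of its 10 listed targets fell. Hk2 went from 77.2, 74.0 and 75.3 CPM to 106, 106 and 102 CPM (0.48 ± 0.0325, adjusted p = 7.65e-29). Pfkp (0.40 ± 0.0332), Slc2a1 (0.26 ± 0.0265), Slc16a1 (0.22 ± 0.0261), Eno2 and Kdm3a (0.14 ± 0.0285) make up the other called rises. Of the other HIF targets 10 rose and 15 fell of 28: Cited2 (0.98 ± 0.0310) and Pgf (0.78 ± 0.136) against Gbe1, the glycogen branching enzyme (-0.91 ± 0.0578), and Fam162a (-0.71 ± 0.0304). Epas1 (1.08 ± 0.186) and Cul2, part of the ligase that degrades HIF (0.46 ± 0.0352), led the 6 of 10 machinery genes that rose. Mycn fell (-1.14 ± 0.0410), as did Txnip (-0.56 ± 0.0223) and Pdk2 (-0.69 ± 0.101), while the fructose bisphosphatase Tigar rose (0.65 ± 0.108).

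**Figure D3:**
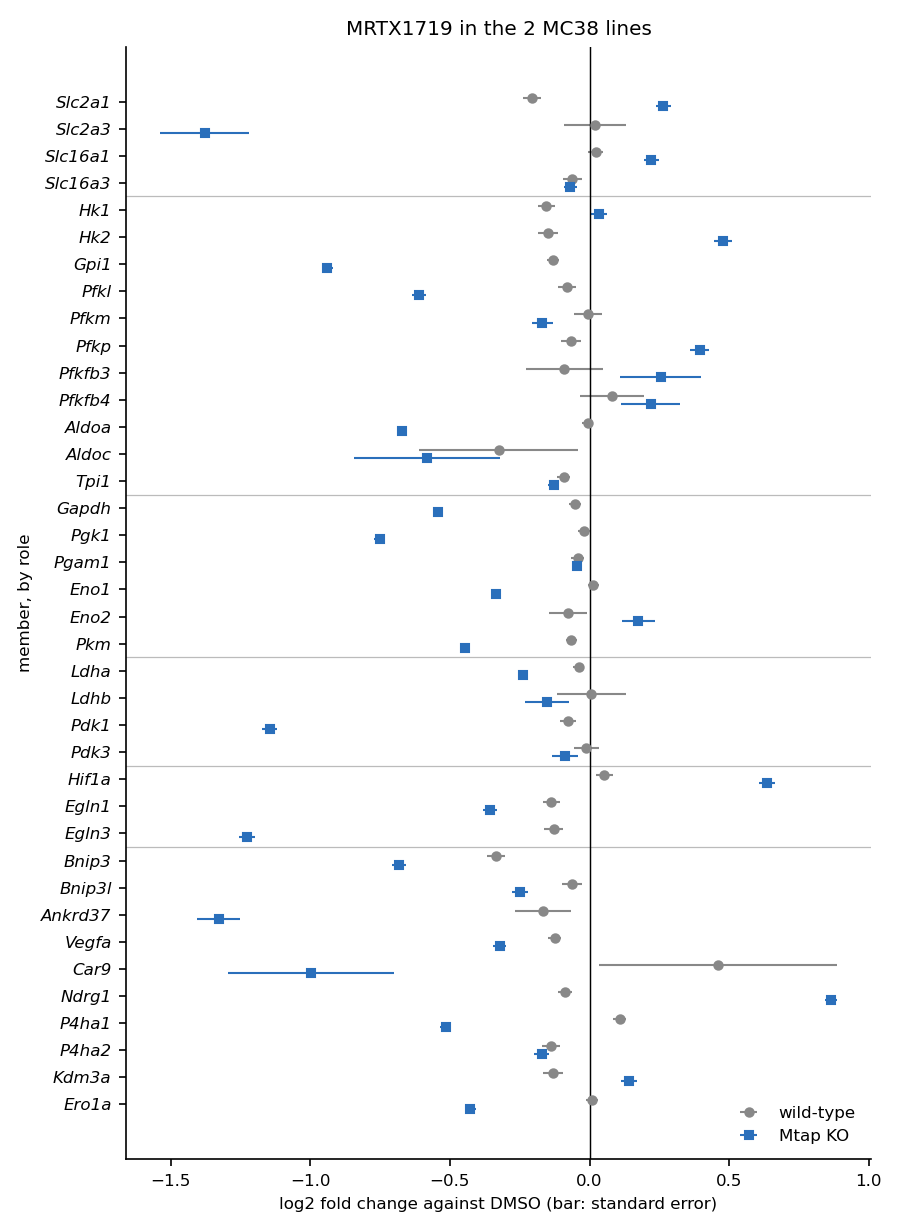
Log2 fold change of each member with MRTX1719 against DMSO (x axis; bars are standard errors) in wild-type (grey circles) and KO (blue squares) MC38 cells, in order of role. Most wild-type values lie near 0. Low-level Car9 is an exception, at a mean of 0.396 CPM with DMSO and 0.548 CPM with MRTX1719. In KO cells Slc2a3, Ankrd37, Egln3 and Pdk1 lie below -1 while Ndrg1, Hif1a and Hk2 lie to the right.

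Whether a compound acted differently in the 2 lines was tested as a difference of differences. For MRTX1719 the effect in KO cells minus that in wild-type cells was positive for 9 and negative for 20 of 38 members, against 58.2% of all genes called (30.3% up, 27.9% down). Ndrg1 (0.95 ± 0.0319, adjusted p = 4.98e-59), Hk2 (0.63 ± 0.0483, adjusted p = 3.08e-24) and Hif1a (0.58 ± 0.0417, adjusted p = 1.04e-24) had the largest positive values. Car9 (-1.46 ± 0.523, adjusted p = 0.0112), Slc2a3 (-1.40 ± 0.197, adjusted p = 3.27e-10) and Ankrd37 (-1.16 ± 0.129, adjusted p = 1.48e-14) had the largest negative ones, with Egln3 at -1.10 and Pdk1 at -1.07. The Car9 value was not called without wild-type DMSO replicate 1 (adjusted p = 0.0516) or wild-type MRTX1719 replicate 1 (0.076). Several members have no called difference between the lines, among them Tpi1 (-0.04 ± 0.0299) and Pgam1, and this does not show that they responded alike.

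For GSK3326595 the same difference was positive for 15 and negative for 11 members, against 42.2% of all genes (22% up, 20.2% down). Hk2 (0.73 ± 0.0455, adjusted p = 6.15e-31), Slc2a1 (0.71 ± 0.0388, adjusted p = 3.48e-36) and Ndrg1 (0.58 ± 0.0298, adjusted p = 7.5e-39) were raised more in KO cells, and Hk2 and Slc2a1 had fallen in wild-type cells. Ankrd37 (-0.65 ± 0.108, adjusted p = 1.38e-07) and Ldhb (-0.62 ± 0.129, adjusted p = 2.39e-05) had negative values. Car9 gave -1.16 ± 0.473 (adjusted p = 0.0364), a call lost without wild-type DMSO replicate 1 (0.149), wild-type GSK3326595 replicate 2 (0.125), KO DMSO replicate 2 (0.109), or KO GSK3326595 replicate 1 (0.0811) or 3 (0.062), with DESeq2 (0.114) and with no low-count filter (0.0773). In both differences the same DMSO libraries serve both compounds. Other HIF targets had 12 up and 3 down of 28 for GSK3326595, and 9 up and 12 down for MRTX1719.

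The 2 compounds were compared directly at 0.5 µM in each cell type, which makes 3 pairs, with p-values adjusted over all genes within each. In wild-type MC38 cells 22 members were lower and 3 higher with MRTX1719 than with GSK3326595, against 30% of all genes called (15.4% up, 14.6% down). The number lower was 19 to 20 without 1 of the GSK3326595 libraries, 19 with DESeq2 and 18 with no filter on low counts. It stayed at 22 with DESeq2 size factors in edgeR, a replicate block or only the groups compared. Without MRTX1719 replicate 1, which leaves 1 library in that group, the number was lower than in any of these settings. Slc2a3 was higher with MRTX1719, at 7.74 and 7.68 CPM against 5.74, 5.08 and 5.57 CPM (0.50 ± 0.117, adjusted p = 0.000335). Pdk3 was at 53.2 and 51.8 against 46.7, 47.9 and 45.4 CPM (0.17 ± 0.0451, adjusted p = 0.00154), and Hk1 at 125 and 127 against 111, 116 and 118 CPM (0.13 ± 0.0313, adjusted p = 0.000357). Ankrd37 was lower with MRTX1719, at 7.02 and 7.98 against 9.58, 10.6 and 10.3 CPM (-0.43 ± 0.0965, adjusted p = 0.000127). Pfkm, the muscle-type phosphofructokinase, was at 36.6 and 36.9 against 43.0, 43.6 and 44.6 CPM (-0.25 ± 0.0479, adjusted p = 6.53e-06). Ldhb was at 5.02 and 5.6 against 7.04, 7.04 and 6.90 CPM (-0.40 ± 0.113, adjusted p = 0.00351), and without MRTX1719 replicate 1 it was not called (adjusted p = 0.103). Each of these 6 genes separated the treatments without overlap.

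In KO cells 28 members were lower and 4 higher with MRTX1719 than with GSK3326595, against 53.2% of all genes called (28.3% up, 24.9% down), with a median of -0.38. Egln3 was at 91.9, 95.6 and 89.9 against 209, 199 and 206 CPM (-1.14 ± 0.0287, adjusted p = 1.39e-73). Pdk1 was at 123, 132 and 128 against 246, 245 and 252 CPM (-0.95 ± 0.0262, adjusted p = 6.32e-69), and Ankrd37 at 7.86, 9.39 and 7.91 against 16.6, 16.4 and 15.9 CPM (-0.95 ± 0.0792, adjusted p = 1.27e-21). None of these groups overlapped. Hif1a was higher with MRTX1719, at 240, 234 and 250 against 178, 194 and 198 CPM (0.34 ± 0.0265, adjusted p = 3.02e-22), and so was Ndrg1 (0.21 ± 0.0200, adjusted p = 9.82e-18). Pfkfb3 was at 4.66, 3.68 and 3.47 against 3.02, 2.86 and 2.98 CPM (0.41 ± 0.146, adjusted p = 0.0115), but without MRTX1719 replicate 1 it was 0.28 (adjusted p = 0.143), and DESeq2 did not call it (0.0541). Hk2, raised by both compounds against DMSO, differed by -0.03 ± 0.0305 between them, and the libraries overlapped. Other HIF targets had 20 lower and 4 higher of 28, with Adm at -0.97 ± 0.177 and Fam162a at -0.79 ± 0.0299.

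In T cells GSK3326595 lowered 20 of 38 members and raised 8, against 52.8% of all 13753 genes called (26.6% up, 26.2% down). The median log2 fold change was -0.15, and 3 of 38 members changed at least 2-fold, against 5.93% of all genes. Of the 11 upper-pathway genes 9 fell and 2 rose, and 5 of the 10 HIF targets fell. Summed T cell markers went from 4350 to 4420 CPM with DMSO to 6310 to 6490 CPM with GSK3326595, and handling genes from 858 to 901 CPM to 558 to 578 CPM; their part in these changes was not tested.

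Vegfa fell most in these T cells, from 24.1, 22.3 and 24.1 CPM to 7.46, 6.33 and 7.14 CPM (-1.75 ± 0.0984, adjusted p = 5.33e-29). Slc16a3 fell from 36.1, 38.5 and 35.8 CPM to 14.5, 16.7 and 16.8 CPM (-1.20 ± 0.0743, adjusted p = 2.53e-26). Aldoc fell from 11.6, 10.7 and 13.1 CPM to 6.34, 4.71 and 5.09 CPM (-1.13 ± 0.126, adjusted p = 6.02e-13). Controls and treated libraries stood wide apart in all 3 genes. Ero1a (-0.80 ± 0.0756), Hk2 (-0.74 ± 0.0400), Hif1a (-0.63 ± 0.0499), Pfkl (-0.51 ± 0.0525), Tpi1 (-0.50 ± 0.0375), Eno1 (-0.38 ± 0.0329) and Gapdh (-0.38 ± 0.0305) fell as well. Eno2, at 3 to 15 counts per T cell library, missed the threshold at -1.13 ± 0.514 (adjusted p = 0.052).

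Of the 4 lactate and pyruvate genes 3 rose in T cells with GSK3326595. Pdk1 rose from 30.4, 28.8 and 26.5 CPM to 48.1, 46.7 and 50.0 CPM (0.76 ± 0.0640, adjusted p = 1.31e-18), and Pdk3 rose with it (0.49). Pfkm rose from 21.8, 22.1 and 21.5 CPM to 34.2, 30.3 and 35.2 CPM (0.62 ± 0.0730, adjusted p = 5.35e-12). Ldhb rose from 1.64, 2.20 and 2.36 CPM to 3.12, 2.77 and 3.35 CPM (0.59 ± 0.227, adjusted p = 0.0213), without overlap. The Ldhb call was lost without DMSO replicate 1 (0.149) or GSK3326595 replicate 3 (0.0743) and with DESeq2 (0.0811). Egln1 (0.55 ± 0.0714), Pgam1 (0.30 ± 0.0470), Pgk1 (0.17 ± 0.0368) and Hk1 also rose, while Gapdh, Eno1 and Pkm of the lower pathway fell. In the neighbouring lists Pck2, a mitochondrial gluconeogenic enzyme, fell (-1.38 ± 0.0450), as did Mlxip, a glucose-sensing factor (-0.93 ± 0.0493), and 13 of 28 other HIF targets, with Ppp1r3b, a glycogen-targeting phosphatase subunit, at -1.20 ± 0.105. Ak4 gave -1.25 ± 0.386, a call lost without GSK3326595 replicate 1 (adjusted p = 0.0693). Pdk2 (1.20 ± 0.326) and the pyruvate carrier subunit Mpc1 (0.60 ± 0.0728) rose.

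MRTX1719 in T cells raised 14 members and lowered 4, against 37.4% of all genes called (18.9% up, 18.5% down), with a median of 0.04. Pgk1 rose from 221, 230 and 216 CPM to 362, 358 and 370 CPM (0.71 ± 0.0365, adjusted p = 1.15e-30). Ldha rose from 585, 589 and 569 CPM to 786, 827 and 830 CPM (0.49 ± 0.0334, adjusted p = 5.68e-23). Both genes separated the groups completely. Ldhb rose from 1.64, 2.20 and 2.36 CPM to 2.61, 3.38 and 4.25 CPM (0.76 ± 0.225, adjusted p = 0.00431), but not without DMSO replicate 1 (0.0546) or MRTX1719 replicate 3 (0.0878). All 4 lactate and pyruvate genes rose, with Pdk3 at 0.48 ± 0.118 and Pdk1 at 0.25, and 4 of the 6 lower-pathway genes rose, including Pgam1 (0.45 ± 0.0469). Bnip3 rose (0.38 ± 0.0814).

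Falls in T cells with MRTX1719 were fewer and smaller. Vegfa went from 24.1, 22.3 and 24.1 CPM to 19.2, 17.1 and 17.5 CPM (-0.40 ± 0.0858, adjusted p = 8.54e-05), and Slc16a3 from 36.1, 38.5 and 35.8 CPM to 32.0, 31.3 and 30.4 CPM (-0.24 ± 0.0682, adjusted p = 0.00351). Pfkfb3 went from 9.61, 11.5 and 8.91 CPM to 7.90, 7.45 and 6.67 CPM (-0.45 ± 0.128, adjusted p = 0.00302). The fourth was Hif1a (-0.14 ± 0.0485), which lost its call without DMSO replicate 1 (0.0568) or 2 (0.0764) or MRTX1719 replicate 3 (0.105), with DESeq2 (0.0722) and with no low-count filter (0.111). Without DMSO replicate 2 the number that fell was 2, and Pfkfb3 was then at -0.34 (adjusted p = 0.053). Handling genes summed to 738 to 748 CPM with MRTX1719 against 858 to 901 CPM with DMSO, and their part was not tested. Of 28 other HIF targets 6 rose and 9 fell, with Fam162a at 0.34 ± 0.0521 and Ppp1r3b at -0.66 ± 0.0999. Hif1an, which blocks HIF's transactivation domain, fell (-0.54 ± 0.0701).

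Set against each other in T cells, 23 members were higher and 3 lower with MRTX1719 than with GSK3326595, against 39.1% of all genes called (19.3% up, 19.7% down), with a median of 0.28. Vegfa was at 19.2, 17.1 and 17.5 against 7.46, 6.33 and 7.14 CPM (1.35 ± 0.102, adjusted p = 7.84e-21). Aldoc was at 9.86, 11.3 and 11.0 against 6.34, 4.71 and 5.09 CPM (0.99 ± 0.127, adjusted p = 2.42e-10), and Slc16a3 at 32.0, 31.3 and 30.4 against 14.5, 16.7 and 16.8 CPM (0.96 ± 0.0756, adjusted p = 6.74e-20). All 3 were lower with GSK3326595 in every library. Pdk1 was at 36.6, 32.4 and 33.4 against 48.1, 46.7 and 50.0 CPM (-0.51 ± 0.0622, adjusted p = 4.23e-11). Pfkm was at 24.0, 22.2 and 24.6 against 34.2, 30.3 and 35.2 CPM (-0.50 ± 0.0717, adjusted p = 7.67e-09), and Hk1 at 76.0, 74.2 and 73.3 against 90.4, 85.2 and 90.5 CPM (-0.26 ± 0.0468, adjusted p = 3.75e-06). Of the upper-pathway genes 8 were higher and 2 lower, and 5 of the 6 lower-pathway genes were higher. Slc2a3 (-0.05 ± 0.0652) and Ldhb (0.17 ± 0.207) were not called, which does not show that the compounds act alike on them. Pck2 was much higher with MRTX1719 (1.30 ± 0.0450).

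**Figure D4:**
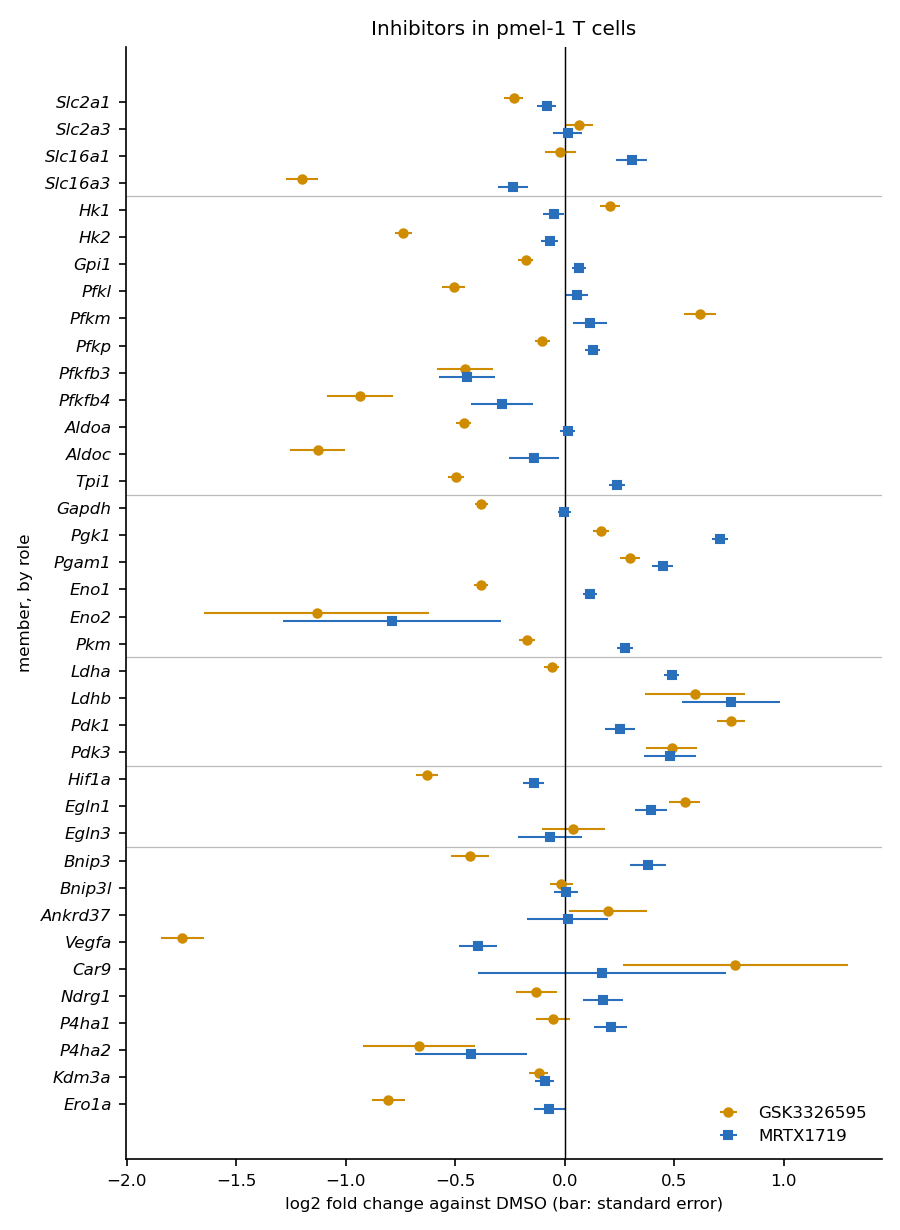
Log2 fold change of each member in pmel-1 T cells with GSK3326595 or MRTX1719 against DMSO (x axis; bars are standard errors), in order of role; both series share the same 3 DMSO libraries. GSK3326595 lowers Vegfa, Slc16a3 and Aldoc by more than 1, while MRTX1719 raises Pgk1 and Ldha.

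Paired members that serve the same step were set against each other as the log2 ratio of their counts within a library, which does not depend on library size. Over 11 such pairs and 7 comparisons, 55 of 77 comparisons had groups that did not overlap and 22 overlapped. In the same comparisons 7.53% to 73.2% of all genes were called, which is another measure. No share of non-overlapping pairs over all genes was computed, so nothing is read from the 55. An exact two-sided permutation test of 3 against 3 libraries cannot go below p = 0.1, and the smallest adjusted p over the 77 tests was 0.154. The lactate carriers Slc16a3 to Slc16a1 had a ratio of -0.93 ± 0.013 in wild-type and 0.86 ± 0.024 in KO cells under DMSO (SD, n = 3 each). In KO cells it was 1.27 ± 0.047 with GSK3326595 and 0.57 ± 0.016 with MRTX1719. In T cells it went from 0.45 ± 0.041 with DMSO to -0.74 ± 0.17 with GSK3326595 and -0.10 ± 0.062 with MRTX1719. Because counts are not per length, a change in the ratio can be read but its sign cannot.

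The phosphofructokinase ratio of Pfkp to Pfkl was -0.49 ± 0.007 in wild-type and -1.63 ± 0.038 in KO cells, and with MRTX1719 in KO cells -0.63 ± 0.055. Pdk1 to Pdk3, kinases of the same complex, went from 1.74 ± 0.035 in wild-type to 2.93 ± 0.047 in KO cells and to 1.87 ± 0.014 in KO cells with MRTX1719. Egln3 to Egln1 showed the same order, at -0.64 ± 0.025, 0.20 ± 0.035 and -0.68 ± 0.031. In these 3 pairs the KO cells with MRTX1719 lay nearer to wild-type than to KO cells under DMSO. Slc2a3 to Slc2a1 did not follow, at -4.05 ± 0.14, -5.32 ± 0.30 and -6.97 ± 0.25. Neither did Slc16a3 to Slc16a1, given above, nor Ldhb to Ldha (-7.282, -6.663 and -6.568 in the same order). Pfkfb4 to Pfkfb3 (0.349, 0.905 and 0.878) and Aldoc to Aldoa (-9.401, -9.964 and -9.953) also stayed near the KO value under DMSO. With MRTX1719, Hk2 to Hk1 (-0.646, -0.992 and -0.552), Eno2 to Eno1 (-6.651, -6.785 and -6.276) and P4ha2 to P4ha1 (-1.677, -1.867 and -1.522) went past the wild-type value. Hk2 to Hk1 stood out in T cells, where it was 1.14 ± 0.071 with DMSO, 0.19 ± 0.027 with GSK3326595 and 1.11 ± 0.019 with MRTX1719.

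**Figure D5:**
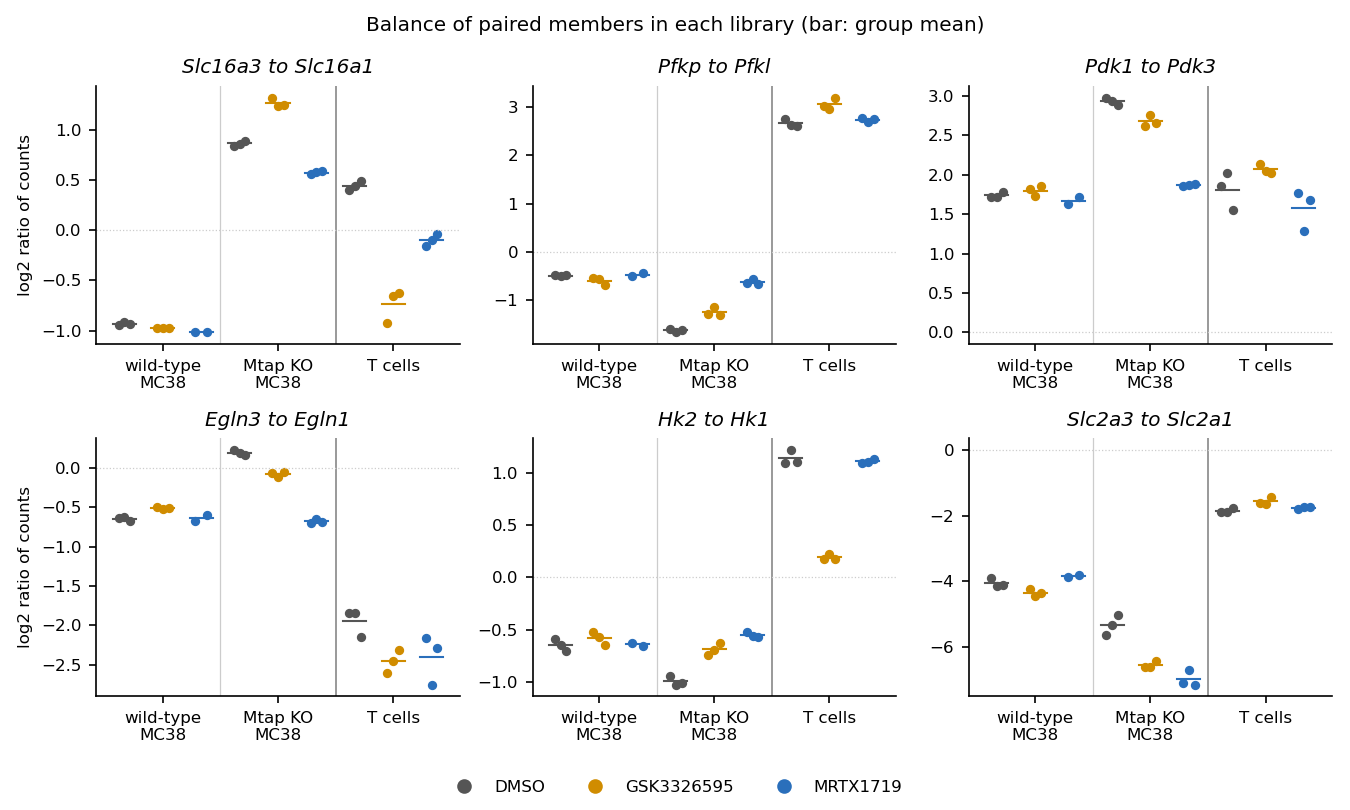
Log2 ratio of counts (y axis, own scale per panel) of 6 pairs of members in each library, by cell type and treatment, with a bar at the group mean. Pfkp to Pfkl, Pdk1 to Pdk3 and Egln3 to Egln1 in KO cells with MRTX1719 lie near the wild-type points. Slc16a3 to Slc16a1 and Slc2a3 to Slc2a1 do not, and Hk2 to Hk1 drops in T cells with GSK3326595.

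Some members share reads or positions with other genes. Gapdh, Pgk1, Eno1, Ldha, Aldoa and Pgam1 have processed pseudogene copies, so reads may have been split or lost by the counting. Ankrd37 overlaps Ufsp2 and Lrp2bp, Pfkm overlaps Senp1 and Hk1 overlaps Hk1os in GENCODE M21, and no source used here says whether the counting used strand. Another entry named Aldoa, an upstream neighbouring locus of low level (4.30 ± 0.529 CPM in KO cells under DMSO), was not counted as a member.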

How the data were processed

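Raw gene counts and normalized signal were deposited in 1 table of each kind per cell type, 17 columns for MC38 and 9 for T cells. The submitters' processing notes name TopHat2 2.0.10, Bowtie2 2.1.0, DESeq 1.18.0 and GRCm39 (mm39); the read counter, annotation and strand setting: not given in the sources used here. The deposited normalized signal was each raw count divided by 1 size factor per library (tolerance 1e-06), and it served only to tie gene names to identifiers. The deposited counts were tested with edgeR 4.0.16 (R 4.3.3): low-count filter by group, trimmed mean of M values, robust quasi-likelihood fit over all groups of a table with no covariates, Benjamini-Hochberg adjustment over all genes tested (14835 in MC38, 13753 in T cells) and a threshold of 0.05. The standard error is the log2 fold change divided by the square root of F. All 38 members passed the filter in both tables. On counts simulated for MRTX1719 in KO cells (14403 genes), the test recovered 92 of 100 genes changed by 0.5 on the log2 scale and 99 of 100 changed by 1. For MRTX1719 in wild-type cells it recovered 90 and 96, and for the GSK3326595 difference between the lines 89 and 93. For GSK3326595 in T cells it recovered 75 and 93. Unchanged genes called numbered 10, 7, 6 and 4 in that order. The changed genes had a mean above 1 CPM, so members below that level are not covered. Only the 100 genes of each size were changed, in 1 group, and every other gene had the same mean in all groups. In the data 70.5% of all genes were called for MRTX1719 in KO cells. The simulation therefore does not show how the test or the scaling behaves when most genes change.

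Members given library by library are up to 3 that rose most and up to 3 that fell most among called members at 1 CPM or more in a group compared; up to 2 genes per direction of each neighbouring list are named by the same rule. The members and the lists were chosen with earlier results of these data known. Alternatives were DESeq2 1.42.0, DESeq2 size factors in edgeR, no filter, only the groups compared, a replicate block and leaving out each replicate. The treatment field spells GSK3326595 with another last digit in some replicates, and the titles were followed. Whether replicates are separate cultures or animals is not stated, so p-values measure the spread between these samples, which may be technical.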

Additional observations from a re-analysis of the deposited data

Results flagged for a closer look

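Both compounds acted differently on several members in the 2 MC38 lines by the test of the difference itself (edgeR, KO effect minus wild-type effect, log2). Of the 38 members 26 were called for GSK3326595, against 42.2% of all genes, and 29 for MRTX1719, against 58.2% of all genes. These shares of all genes were not matched for expression level, and the part of level in the members' share was not tested. The 3 largest in each direction are given. For GSK3326595 they were Hk2 (0.73), Slc2a1 (0.71), Ndrg1 (0.58), Ldhb (-0.62), Ankrd37 (-0.65) and Car9 (-1.16). For MRTX1719 they were Ndrg1 (0.95), Hk2 (0.63), Hif1a (0.58), Ankrd37 (-1.16), Slc2a3 (-1.40) and Car9 (-1.46). Both Car9 values rest on low counts, and their calls are lost without single libraries, as given with them above.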

How the results depend on the processing

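No called member changed direction under any alternative. Of 325 member calls over the 12 comparisons, 325 kept their call with DESeq2 size factors in edgeR, 323 with only the groups compared, 307 with DESeq2, and 305 with no filter on low counts. The replicate block kept all 325, with for example 25 members down and 8 up for MRTX1719 in KO cells, as without it. Deviations of same-numbered libraries correlated between -0.0493 and 0.0454 in MC38 and between -0.0396 and 0.0386 in T cells. Those of libraries with unlike numbers correlated between -0.0366 and 0.0451 and between -0.0276 and 0.0619. No pairing by number was seen. The chi-square per gene between replicates was 1.38 to 2.68 in MC38 and 1.9 to 3.5 in T cells. That is near counting noise, so a pairing could have been missed. Leaving out 1 library kept 2111 of 2212 calls. For MRTX1719 in wild-type cells, which has 2 libraries, it gave 0 to 1 members up and 7 to 13 down. The edgeR count of 0 arose without MRTX1719 replicate 1, with 2 members up at an unadjusted p under 0.05, and DESeq2 was not run without that library. All genes called there were 433 without replicate 1 and 510 without replicate 3, against 1117; in both cases the lone MRTX1719 library is assumed to vary like the other groups. For MRTX1719 in T cells 2 to 5 members fell. Depth limits Car9, Aldoc in MC38 cells and Eno2 in T cells.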
